A study of Mus musculus with 7 samples.

Results

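Lymphoid priming genes were examined in haematopoietic stem cells (HSCs) from Mettl3-deleted mice and from controls. Mettl3 is the enzyme that writes N6-methyladenosine into mRNA. The members were 10 listed genes, of which 9 matched a row among the 23038 genes of the deposited table by symbol. The remaining one, Ighm, which encodes the heavy chain of IgM, was not analysed here. Of the 9 genes, 5 had reads and 4 had none in either group.

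Lymphoid priming is the low-level activity of lymphocyte genes in progenitors that are not yet committed to a lineage. In the bone marrow, Ikaros (Ikzf1) and the E protein E2A (Tcf3) open the lymphoid programme in multipotent progenitors. The interleukin-7 receptor (Il7r), terminal transferase (Dntt) and the Rag1 and Rag2 recombinase follow in lymphoid progenitors. HSCs sorted for CD150 and against CD48 lie upstream of that step.

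Each Smart-seq2 library, made by a protocol that copies whole transcripts of few cells, came from 150 sorted HSCs (Lineage-, Sca1+, cKit+, CD150+, CD48-) from the bone marrow of adult C57BL/6 mice. The mutant group was 4 libraries of Mx1-cre; Mettl3fl/fl mice and the control group was 3 libraries of Cre-negative littermates. Mice of both groups had received 5 intraperitoneal doses of 10 µg pIpC. It mimics viral double-stranded RNA, and the interferon response to it switches on the Mx1 promoter in front of Cre. Cells were taken 10 days after the last dose, so the controls had been through the same interferon stimulus. The Mx1 promoter is not specific to HSCs, and Cre is induced in other blood cells and tissues too.

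The values are RPKM, read counts scaled for gene length and library size, given by the authors as 1 mean for each gene and group. A mean has no spread between animals, so no SD, standard error or p-value could be computed for a member, and none of the differences below has a replicate check. Differences are log2((mutant + 1) / (control + 1)). The added 1 RPKM understates the change of low genes. Mettl3 itself was at 9.60 RPKM in the mutant mean and 49.8 RPKM in the control mean, 19.3% of the control level, as the labels of the groups require. Scaled library sizes, read from the step that 1 read makes in the lowest values, ran from 25.7 to 37.7 M reads (M for mega) in mutants and from 19.6 to 31.1 M reads in controls. Fewer cells of a kind and less RNA per cell cannot be told apart in these bulk libraries.

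The 5 genes with reads differed widely in level. Nkg7 was highest in both groups, followed by Tcf3, and Satb1 was lowest. Lck and Ikzf1, in between, stood close together in the mutant mean, at 9.30 and 8.80 RPKM, and apart in the control mean, at 19.0 and 7.01 RPKM. In the mutant mean 4 of the 5 were lower and 1, Ikzf1, was higher, with a median log2 difference of -0.39. Over all 14539 genes with reads, 47.4% stood lower and 52.6% higher in mutants, and the median was 0.02. None of the 5 was at least 2-fold apart on this scale, a limit of size that involves no test. Of all genes with reads 7.14% were that far apart, 3.67% higher and 3.47% lower. Among genes with at least 10 RPKM in a group the share was 5.83%, with 2.47% lower. Lck and Nkg7 lay just short of that limit.

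**Figure D1:**
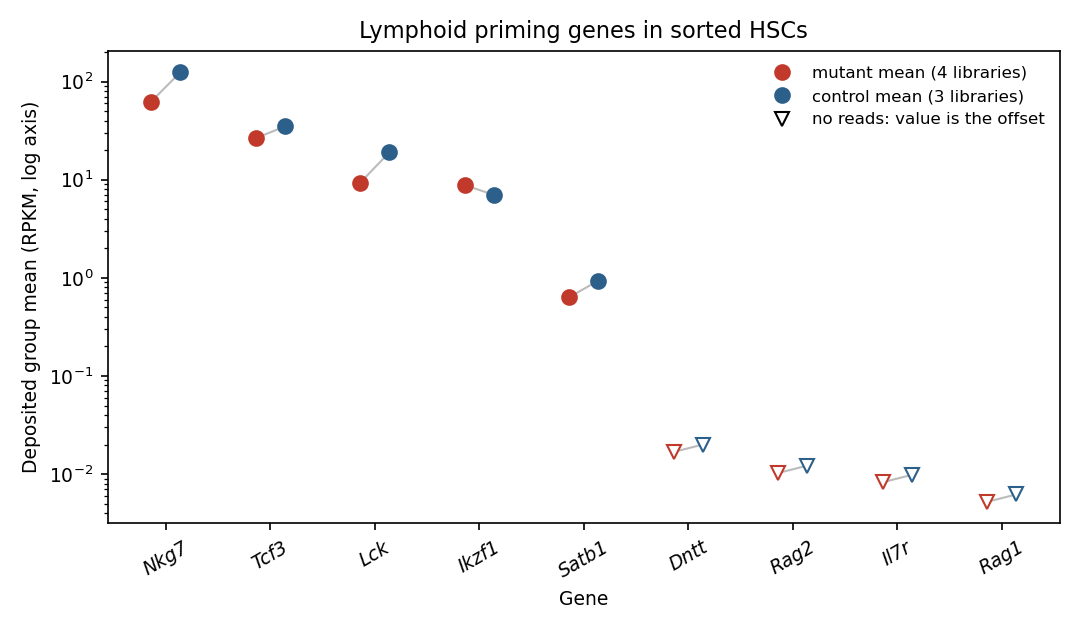
Deposited group means of the 9 genes in RPKM on a log axis, with the mutant mean (red, 4 libraries) left of the control mean (blue, 3 libraries) for each gene. Filled circles are genes with reads, from Nkg7 at 62.3 RPKM in mutants and 124 RPKM in controls down to Satb1, and open triangles are genes without reads, whose 2 values are the offset of each group.

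Il7r, Dntt, Rag1 and Rag2 had no reads in any of the 7 libraries. Il7r encodes the alpha chain of the receptor through which interleukin-7 sustains lymphoid progenitors (NCBI Gene 16197, chromosome 15, 9506159 to 9529941, GRCm38.p6). Dntt encodes the polymerase that adds untemplated bases at the joints of antigen receptor genes (NCBI Gene 21673, chromosome 19, 41029275 to 41059525). Rag1 (NCBI Gene 19373, chromosome 2, 101638252 to 101649532) and Rag2 (NCBI Gene 19374, chromosome 2, 101624712 to 101632528) encode the subunits of the recombinase that cuts those genes. They lie tail to tail, 5723 bases apart.

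The deposited values of these genes are not 0, and they look lower in the mutant mean. Il7r was listed at 0.00826 RPKM in mutants and 0.00983 RPKM in controls, and Rag1 at 0.00523 RPKM in mutants and 0.00621 RPKM in controls. The ratio of the mutant to the control value was 0.841 in each of the 4 genes, the same ratio as in all 8499 genes (36.9%) at the offset. That ratio is set by the library sizes, if the values are those of reads plus 1 in each library, divided by length and library size. That reading was taken from the values themselves and was not stated by the authors in the sources used here, and all read counts and limits given here rest on it. These 4 pairs of values therefore carry no difference between the groups. The absence of reads has a limit that follows from depth: a count of 0 allows up to 3 reads over the libraries of a group. For Il7r, with a gene model of 4217 bases, that is up to 0.00606 RPKM in mutants and up to 0.00949 RPKM in controls. For Dntt, the shortest of the 4 at 2070 bases, it is up to 0.0123 RPKM in mutants and up to 0.0193 RPKM in controls. These limits cover counting error only, and at this depth neither group had detectable transcript.

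The sequences around the start sites of Rag1 and Dntt are shown as examples of the recombination genes without reads in either group, of which Rag2 was another. Each window, from RefSeq on GRCm38.p6, runs from 250 bases before to 50 bases after the start, on the strand of the gene. Capitals mark CANNTG, the E-box core bound by E proteins such as Tcf3, and TGGGAA, a core bound by Ikaros proteins, on either strand. The Rag1 window is chr2:101649483-101649782 on the minus strand and the Dntt window is chr19:41029025-41029324 on the plus strand.
Rag1: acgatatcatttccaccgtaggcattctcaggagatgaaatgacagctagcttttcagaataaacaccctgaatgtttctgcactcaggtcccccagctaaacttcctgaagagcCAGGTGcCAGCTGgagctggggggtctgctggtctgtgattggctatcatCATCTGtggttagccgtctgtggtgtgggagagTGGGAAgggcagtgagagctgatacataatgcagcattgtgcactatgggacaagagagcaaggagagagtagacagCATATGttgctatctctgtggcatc
Dntt: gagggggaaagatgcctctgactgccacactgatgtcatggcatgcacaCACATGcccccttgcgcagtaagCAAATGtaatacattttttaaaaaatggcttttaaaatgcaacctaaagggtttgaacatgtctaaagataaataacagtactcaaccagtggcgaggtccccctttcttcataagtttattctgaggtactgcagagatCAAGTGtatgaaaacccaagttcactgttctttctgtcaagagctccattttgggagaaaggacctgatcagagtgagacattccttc
The Rag1 window held 4 matches to CANNTG, of which CAGGTG and CAGCTG stand 1 base apart, and 1 match to TGGGAA. The Dntt window held 3 matches to CANNTG and none to TGGGAA. E-box cores are common: 72.3% of 32851 windows of the same length held one, and 25.6% held TGGGAA. The TATA core TATAAA, which 13.6% of all windows held, was in none of the 15 windows of the 9 genes. The windows of Dntt and Rag1 were poor in CG dinucleotides, with 2 and 3, against a median of 7 over all windows. A match of letters is a description and says nothing of binding in these cells.

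The genes Ikzf1, Tcf3 and Satb1 encode nuclear factors of the lymphoid programme. Ikzf1 encodes Ikaros, a zinc finger protein required for lymphoid development (NCBI Gene 22778, chromosome 11, 11684962 to 11772930). It was at 8.80 RPKM in the mutant mean and 7.01 RPKM in the control mean, a log2 difference of 0.29. Ikzf1 was the 1 member above its control level, and 26.5% of all genes with reads were at least as far above theirs. The other Ikaros family genes with reads stood the same way, as did 52.6% of all genes with reads. Each of these family genes was under 3 RPKM, and the spread of its reads over libraries is unknown. Ikzf2, which encodes Helios, was at 2.10 RPKM in mutants and 1.498 RPKM in controls. Ikzf5, which encodes Pegasus, was at 2.81 RPKM in mutants and 1.82 RPKM in controls, and Ikzf4, which encodes Eos, was at 0.896 RPKM in mutants and 0.639 RPKM in controls. Ikzf3, the Aiolos gene of later B cells, had no reads. Summed over the family, levels were 14.6 RPKM in mutants and 11.0 RPKM in controls.

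Tcf3 encodes the E2A proteins E12 and E47, basic helix-loop-helix factors that bind E-boxes and start B cell development (NCBI Gene 21423, chromosome 10, 80409541 to 80433976). It was at 26.4 RPKM in the mutant mean and 34.8 RPKM in the control mean, a log2 difference of -0.39, and 18.2% of genes with reads were at least as far below. The other E protein genes went both ways: Tcf4 was at 14.3 RPKM in mutants and 16.9 RPKM in controls, whereas Tcf12 was at 6.25 RPKM in mutants and 4.57 RPKM in controls. Id proteins pair with E proteins and keep them off DNA. Id1 was at 35.9 RPKM in mutants and 19.8 RPKM in controls, a log2 difference of 0.83. Id2, which favours natural killer and innate lymphoid fates, was at 9.63 RPKM in mutants and 14.1 RPKM in controls. Id3 was low, at 1.15 RPKM in mutants and 0.650 RPKM in controls. Its reads were 0, 0, 88 and 25 in mutant libraries (from the largest to the smallest) and 0, 0 and 34 in control libraries. The E protein genes summed to 47.0 RPKM in mutants and 56.3 RPKM in controls, and the Id genes to 46.7 RPKM in mutants and 34.5 RPKM in controls.

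Satb1 encodes a chromatin organiser that promotes lymphoid fates of HSCs (NCBI Gene 20230, chromosome 17, 51736187 to 51833290). It was the lowest member with reads, at 0.635 RPKM in the mutant mean and 0.936 RPKM in the control mean, a log2 difference of -0.24. Without the pseudocount the difference was -0.56, so its size depends on the scale. Values at this level were spread unevenly over libraries. Of 892 genes whose means lay within 2-fold of those of Satb1 in both groups, 150 could be resolved into whole reads per library. Of these 41 had reads in all 7 libraries, and 33 had reads in 2 or 3 libraries. The library with the most supplied a median of 57.3% of the group's sum in mutants and 70.7% in controls. Some of the 150 solutions may be accidental, since the limit of 0.01 accidental solutions applied to each gene tried. The resolved genes have short gene models (median 1043 bases), and Satb1 itself could not be resolved. The spread of its own value between libraries is therefore unknown.

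Lck and Nkg7 are transcripts of mature lymphocytes and were the members farthest apart. Lck encodes the Src family kinase that starts signalling from the T cell receptor (NCBI Gene 16818, chromosome 4, 129548344 to 129573641). It was at 9.30 RPKM in the mutant mean and 19.0 RPKM in the control mean, which is 49.0% of control, with a log2 difference of -0.96. Nkg7 encodes a membrane protein of cytotoxic granules in natural killer and T cells (NCBI Gene 72310, chromosome 7, 43437138 to 43438246). It was at 62.3 RPKM in the mutant mean and 124 RPKM in the control mean, which is 50.1% of control, with a log2 difference of -0.99. The levels put both genes well above the detection limit: Nkg7 exceeded 85.6% of genes with reads in mutants and 93.1% in controls, and Lck exceeded 55.9% in mutants and 69.0% in controls. Among 6607 genes with at least 10 RPKM in a group, 183 (2.77%) were at least as far below control as Lck, and 167 (2.53%) as Nkg7. Lck passed 2-fold, at 2.04-fold lower, when no pseudocount was added, a setting under which 11.5% of genes with reads were at least 2-fold lower. Nkg7 was 1.995-fold lower by the same ratio.

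**Figure D2:**
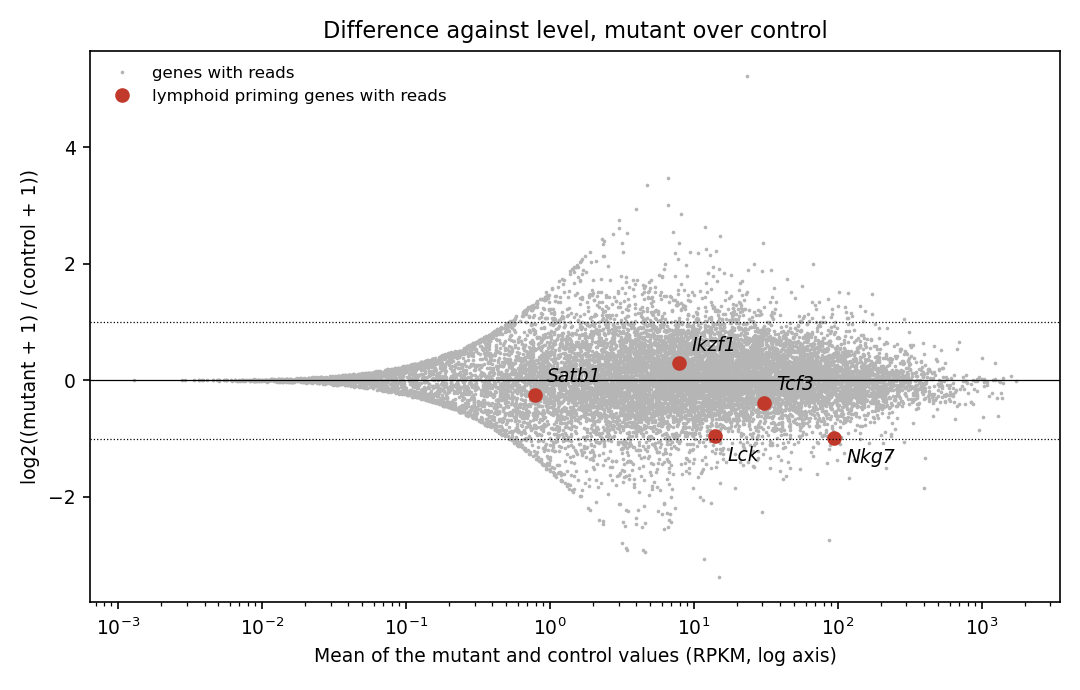
Log2((mutant + 1) / (control + 1)) of each of 14539 genes with reads against the mean of its mutant and control values in RPKM (log axis), with the 5 lymphoid priming genes in red and dotted lines at 2-fold. Lck (-0.96) and Nkg7 (-0.99) sit at the lower line, and Ikzf1 (0.29), Satb1 (-0.24) and Tcf3 (-0.39) lie among most genes of their level.

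Mouse Lck is transcribed from a distal and a proximal promoter, of which the proximal one is known for its activity in thymocytes and the distal one for mature T cells. The value of the table sums over both, so it does not show which was in use. The start sites lie 15269 bases apart. The sequences of both, and that of Nkg7, are shown because these genes were the members farthest apart, and capitals mark the same motifs as above. The windows are chr4:129573592-129573891 (distal) and chr4:129558323-129558622 (proximal) on the minus strand, and chr7:43436888-43437187 on the plus strand for Nkg7.
Lck distal: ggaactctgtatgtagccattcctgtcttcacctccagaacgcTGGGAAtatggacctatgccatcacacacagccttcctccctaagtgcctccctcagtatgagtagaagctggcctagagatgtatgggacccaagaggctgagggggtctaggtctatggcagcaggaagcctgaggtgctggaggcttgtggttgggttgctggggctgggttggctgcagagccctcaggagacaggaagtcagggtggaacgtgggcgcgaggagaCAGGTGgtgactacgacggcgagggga
Lck proximal: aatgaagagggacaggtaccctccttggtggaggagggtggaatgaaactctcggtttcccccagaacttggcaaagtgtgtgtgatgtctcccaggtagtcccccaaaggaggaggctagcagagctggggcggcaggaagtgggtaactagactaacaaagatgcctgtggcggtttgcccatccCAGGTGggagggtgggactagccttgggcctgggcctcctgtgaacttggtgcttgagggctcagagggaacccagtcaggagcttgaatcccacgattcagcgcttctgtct
Nkg7: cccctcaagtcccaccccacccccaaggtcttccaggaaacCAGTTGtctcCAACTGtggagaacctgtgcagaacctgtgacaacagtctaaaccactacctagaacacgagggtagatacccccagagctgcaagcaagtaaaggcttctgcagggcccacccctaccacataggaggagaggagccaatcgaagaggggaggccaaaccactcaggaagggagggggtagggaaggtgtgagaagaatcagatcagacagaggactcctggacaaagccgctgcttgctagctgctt
Each Lck window held 1 match to CANNTG, in both the sequence CAGGTG, and the distal window also held 1 match to TGGGAA. The Nkg7 window held 2 matches to CANNTG and none to TGGGAA. In GENCODE M21, Lck shares 25 exonic bases with the miRNA gene Mir8119 on its own strand. No gene shared exonic bases with Nkg7, Ikzf1, Tcf3, Il7r or Dntt. Satb1 shared 156 exonic bases with Gm36931 on its strand and 128 with Gm6934 on the other, under 1% of its exonic bases in each case. Whether reads were counted by strand was not given in the sources used here.

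Several genes of the receptors that Lck serves in T cells had no reads in these cells. Of 27 other genes of T cell receptor signalling, 11 had no reads in either group. Over all genes of the table, 36.9% had none. The 11 included Cd3e and Cd3g of the CD3 complex, the kinase gene Zap70, and the co-receptor genes Cd8a and Cd8b1. Cd3d had reads in 1 library, 3 in all. Cd247, which encodes the zeta chain of the receptor complex and is named here after its values were seen, had reads, at 1.29 RPKM in mutants and 1.94 RPKM in controls. Of the 16 with reads, 10 stood lower and 6 higher in mutants, with a median log2 difference of -0.29. With 1 RPKM added none was 2-fold apart, but some low genes were by the ratio without it. Most of the signal came from signalling proteins with wider use in blood cells. Lat, the adaptor on which T cell receptor signals assemble, was at 114 RPKM in mutants and 196 RPKM in controls, a log2 difference of -0.77. Lcp2, which encodes the adaptor SLP-76, was at 88.7 RPKM in mutants and 84.0 RPKM in controls. Vav1, a signalling protein of blood cells chosen for mention after its values were seen, was at 53.8 RPKM in mutants and 85.3 RPKM in controls. Fyn, the other Src kinase of T cells, was at 12.2 RPKM in mutants and 15.4 RPKM in controls, and it was likewise chosen after its values were seen.

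Of 27 natural killer and cytotoxic granule genes, 17 had no reads, among them the granzyme genes Gzma and Gzmb, the perforin gene Prf1 and the receptor gene Ncr1. The share without reads over all genes was 36.9%. Of the 10 with reads, 4 stood higher and 6 lower in mutants, with a median of -0.09. Ccl5, a chemokine of T and natural killer cells, was at 46.6 RPKM in mutants and 0.270 RPKM in controls, so that it and Nkg7 stood in opposite directions. Ctsw, a protease of cytotoxic lymphocytes, was also higher in the mutant mean, at 51.6 RPKM in mutants and 18.6 RPKM in controls, a log2 difference of 1.42. Cst7, which encodes cystatin F, was at 0.0353 RPKM in mutants and 1.14 RPKM in controls, and all of its 101 reads lay in 1 control library. Srgn, the granule proteoglycan serglycin, was at 504 RPKM in mutants and 553 RPKM in controls, and Fcer1g, a signalling chain of Fc receptors, at 80.1 RPKM in mutants and 89.6 RPKM in controls.

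B cell receptor genes were split in the same manner between silent and well-expressed members. Of 22 with a row, 6 had no reads, including Cd79a, Igll1 and Ms4a1, where 36.9% of all genes had none. Cd79b, the partner of Cd79a in the receptor, was at 133 RPKM in mutants and 132 RPKM in controls. The 16 with reads were higher in 9 and lower in 7, with a median of 0.01 that turned to -0.004 after rescaling mutants by the median ratio of all genes. Plcg2, a phospholipase of B cell receptor signalling, was at 54.0 RPKM in mutants and 89.6 RPKM in controls. Igj, the joining chain of secreted antibodies, was listed at 0.0166 RPKM in mutants, where it had no reads, and at 1.59 RPKM in controls, where its 240 reads lay in 1 library. Vpreb1, a part of the surrogate light chain, had reads in 3 mutant and all 3 control libraries, at 0.859 RPKM in mutants and 1.69 RPKM in controls.

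Genes around the interleukin-7 receptor had reads although Il7r had none. Of 30 genes of that pathway and of lymphoid progenitor surfaces, 25 had reads, 13 higher and 12 lower in the mutant mean, with a median of 0.01 that turned to -0.02 under the same scaling. With 1 RPKM added none was 2-fold apart, but some were by the ratio without it, such as Flt3 below. Il2rg, the common chain that several cytokine receptors share, was at 382 RPKM in mutants and 249 RPKM in controls, and Ltb, which encodes lymphotoxin beta, at 242 RPKM in mutants and 146 RPKM in controls. Flt3, the receptor that marks lymphoid-primed multipotent progenitors, chosen for mention after its values were seen, was at 4.71 RPKM in mutants and 9.76 RPKM in controls, a log2 difference of -0.92. Ccr9, Ccr7 and Ly6d, which mark later lymphoid progenitors and lymphocytes, had no reads.

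All 18 genes of V(D)J recombination and end joining other than the members had reads. End joining also repairs DNA breaks in cells that are not lymphoid. Of these, 8 stood higher and 10 lower in mutants, with a median of -0.04. Xrcc5, which encodes the Ku80 subunit that holds broken DNA ends, was at 28.9 RPKM in mutants and 61.6 RPKM in controls. Its log2 difference was -1.06, and it was the 1 gene of this list that was 2-fold apart with 1 RPKM added. Its partner Xrcc6, which encodes Ku70, was at 78.4 RPKM in mutants and 80.2 RPKM in controls. Hmgb1, a DNA-bending protein that assists the recombinase, was at 80.4 RPKM in mutants and 79.4 RPKM in controls.

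Among 36 transcription factors of the B and T lineages, 8 had no reads, including Ebf1 and Pax5 of committed B cells and Bcl11b and Lef1 of T cells. For all genes of the table that share was 36.9%. The 28 with reads were higher in 15 and lower in 13, with a median of 0.07 (-0.02 among those with at least 1 RPKM in a group). With 1 RPKM added none was 2-fold apart, but some were by the ratio without it, such as Bcl11a below. The highest were Lmo2, at 246 RPKM in mutants and 315 RPKM in controls, and Spi1, which encodes PU.1, at 178 RPKM in mutants and 122 RPKM in controls. Bcl11a, a factor required for lymphoid development, chosen for mention after its values were seen, was at 18.4 RPKM in mutants and 8.87 RPKM in controls, a log2 difference of 0.97. The members with reads therefore had a lower median (-0.39) than any of these lists, over 5 genes, and that order was not tested.

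**Figure D3:**
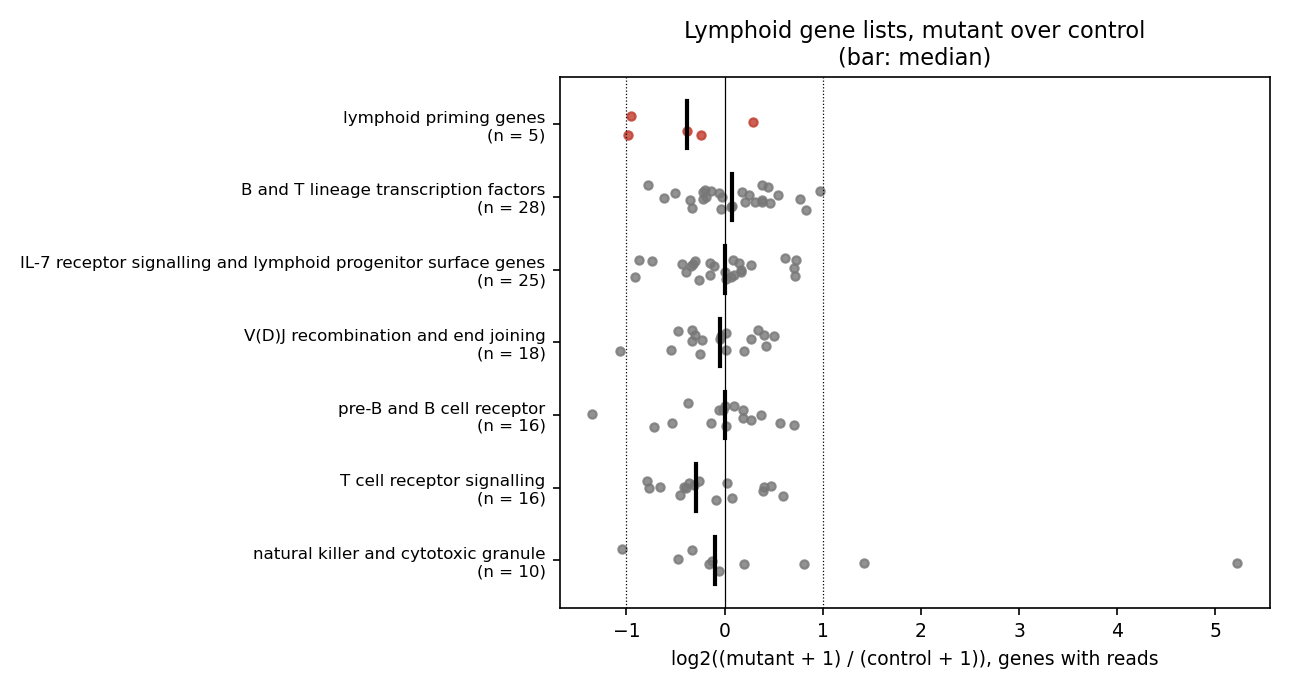
Log2((mutant + 1) / (control + 1)) of each gene with reads, by list, with the lymphoid priming genes in red at the top and black bars at the medians (-0.39 at the top, -0.29 for T cell receptor signalling, the others between -0.09 and 0.07). Dotted lines mark 2-fold, and Ccl5 lies farthest right at 5.23.

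For genes below 3 RPKM the means could often be resolved into whole reads of the 7 libraries, because each library has its own step. Of 32 such genes in the 6 lists, 17 were resolved, and none of the 17 had reads in all 7 libraries. Genes with few reads are resolved more readily, so the 17 may have reads in fewer libraries than the unresolved genes. Among the 150 resolved genes at the level of Satb1, 41 had reads in all 7. In 6 of the 17 the reads lay in 1 library, in 7 they lay in 2 libraries and in 4 in more. Libraries are named here by their scaled size, which the labels do not tie to an animal. Blnk, an adaptor of B cell receptor signalling, had 139 reads in the mutant library of 25.7 M reads and none elsewhere. Cd5, a surface protein of T cells, had 88 reads in the mutant library of 26.9 M reads. Cst7 and Igj, given above, had reads in 1 control library each. Vpreb1 was the most evenly spread, with 11, 54, 6 and 0 reads in mutant libraries (from the largest to the smallest) and 31, 45 and 18 reads in control libraries. Every library held reads of between 3 and 7 of the 17 genes. A gene with 1 read counts here as much as a gene with many. How the reads of Lck and Nkg7 were spread over the libraries is unknown.

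**Figure D4:**
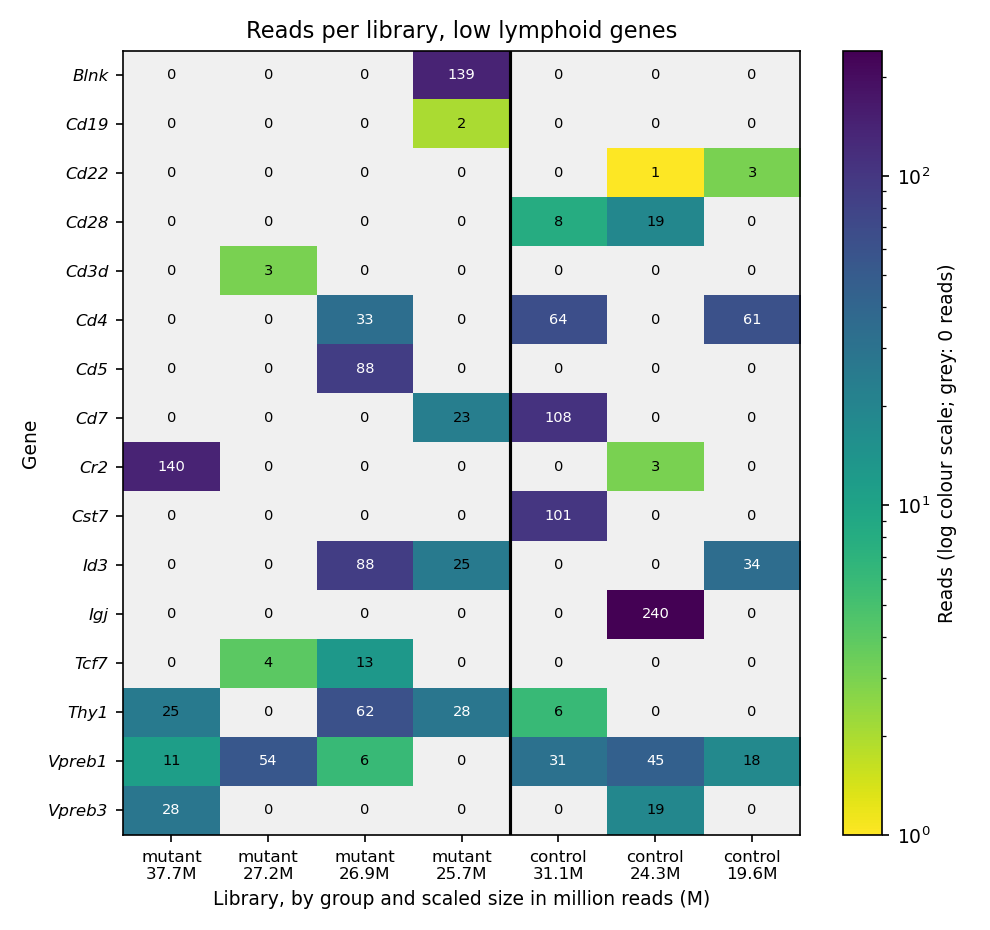
Reads of 16 of the low lymphoid genes in each library (rows are genes, columns are 4 mutant and then 3 control libraries with their scaled size in M reads), with colour on a log scale and grey for 0. Most rows have 1 or 2 coloured cells, such as Igj with 240 reads in the control library of 24.3 M reads, whereas Vpreb1 has 6.

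Markers of the sorted population and of other cells were checked in the same table. All 14 HSC markers had reads, with Procr at 46.0 RPKM in mutants and 53.3 RPKM in controls and Slamf1 (CD150) at 27.1 RPKM in mutants and 25.9 RPKM in controls. Cd48, which the sort gated against, was at 4.04 RPKM in mutants and 5.33 RPKM in controls. Natural killer markers were without reads in 7 of 9 (the exceptions were Ccl5 and Klrb1c), T cell markers in 5 of 11, B and plasma cell markers in 5 of 12 and plasmacytoid dendritic cell markers in 6 of 7. The share without reads over all genes of the table was 36.9%. Natural killer markers summed to 48.5 RPKM in mutants, nearly all of it Ccl5, and to 2.91 RPKM in controls, most of it Klrb1c. T cell markers summed to 116 RPKM in mutants and 197 RPKM in controls, almost wholly Lat in both. Macrophage markers summed to 5.28 RPKM in mutants and 2.97 RPKM in controls, and neutrophil markers to 7.33 RPKM in mutants and 14.7 RPKM in controls. Of the T and natural killer cell markers, Cd3e, Cd3g, Gzma, Gzmb, Prf1 and Ncr1 had no reads in either group. Others had reads, among them Cd3d, Cd4, Cd5, Thy1, Klrb1c and Ccl5. The part of other cells in the lower means of Lck and Nkg7 was not tested.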

How the data were processed

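The 7 libraries were sequenced with paired-end reads of 100 bp. The values are RPKM deposited by the authors as group means, 1 for each gene and group, per the file headers. Per the submitters' processing notes the build was mm10 and Picard and edgeR were used; what each was used for, the aligner and the annotation were not given in the sources used here.

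Groups were taken from the sample titles. Because each column is a group mean, the planned tests over libraries could not be made for the members, and both values are given as a description. The ratio shared by genes without reads gave the offset, a constant of each group divided by gene length. In genes at the offset in 1 group, the most frequent small excesses of the other group gave the steps, as many as there are libraries. Their sum equalled the offset within a relative difference of 4e-11, which was not imposed. A step was read as 1 read. Low genes were resolved by trying gene-model lengths of 200 to 15000 bases. The shortest with whole reads in both groups was kept, if under 0.01 accidental solutions were to be met up to that length. Whether the solved counts are right at the read numbers given here was not tested. Genes whose 7 solved counts plus 1 share a factor were left out, since gene models under 200 bases give such multiples. A longer gene with such counts may be solved at a part of its length and read too low.

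The members and lists were chosen with earlier results of these data known. Named were all members, the relatives of Ikzf1 and Tcf3, and from each of 6 lists the genes at least 2-fold apart with at least 1 RPKM in a group (at most the 4 farthest apart) and the 2 with the highest level; some items are not reported here, and other genes are marked as chosen after their values were seen or stand for genes without reads or with few. Coordinates and promoters are from RefSeq on GRCm38.p6, the assembly mm10 names, and overlaps from GENCODE M21. Python 3.11.15, pandas 2.3.3 and numpy 2.4.6 were used. Alternatives were other pseudocounts, 2 rescalings, a minimum level and removal of the offset.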

Additional observations from a re-analysis of the deposited data

How the results depend on the processing

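The count of lymphoid priming genes at least 2-fold apart was 0 and became 1 with a pseudocount of 0.1 RPKM and 1 with none (Lck, at -1.02 and -1.03), and 1 after rescaling mutants by the median ratio of 1.02 (Nkg7, at -1.01); both genes lie at the limit. It stayed 0 with equal column sums, with a minimum of 1 RPKM and with the offset of a 1 kb gene subtracted. The split of 4 lower and 1 higher was kept under all settings except the minimum of 1 RPKM, which removed Satb1 and left 3 lower. Over all genes, 2855 were 2-fold apart (1508 higher, 1347 lower) with a pseudocount of 0.1 RPKM and 3655 (1981 higher, 1674 lower) with none, against 1038, because low genes then pass. Of 29 recomputed member values, 2 moved over 1.5 times, both of Satb1 (-0.50 with 0.1 RPKM and -0.56 with none), and none changed sign. The median of T cell receptor signalling became -0.43 with 0.1 RPKM and -0.43 with none, and with the minimum of 1 RPKM that of the transcription factors became -0.02. No paired analysis was possible because the file gives 1 mean for each group. Leaving out replicates was not run for the same reason. At the smallest library size, 19.6 M reads (M for mega), depth limits the lowest genes, and the spread between animals is unknown for every member with reads.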

Other observations

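Low markers of other blood cells were resolved into reads per library in the same way, and none of the resolved genes had reads in all 7 libraries. As above, genes with few reads are resolved more readily. Of 29 resolved low genes in all lists, the complement genes of macrophages differed in the library that held most reads. C1qa had 120, 43, 0 and 27 reads in mutant libraries (from the largest to the smallest) and 15, 2 and 0 reads in control libraries. C1qb had 94, 0, 0 and 31 reads in mutant libraries and 5, 0 and 111 reads in control libraries. Its means were 0.904 RPKM in mutants and 1.87 RPKM in controls, and most control reads lay in the smallest control library. C1qc had 5, 0, 0 and 83 reads in mutant libraries and 61, 0 and 1 reads in control libraries. Cd5l, a macrophage gene, had 110 reads in the mutant library of 27.2 M reads and none elsewhere. The neutrophil gene S100a9 had no reads in mutants, and 45, 33 and 0 reads in control libraries.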
